A study of Schizosaccharomyces pombe with 39 samples.

Results

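The gene mug14 (systematic name SPBC359.06) of the fission yeast Schizosaccharomyces pombe was followed through depletion of the heterochromatin regulator Epe1, recovery from it, and a second depletion. It is 1 of 6745 genes listed in the deposited count tables and was picked by name because earlier readings of these same data had shown a large transient rise in depletion. Its levels and fold differences in all 13 groups of libraries are therefore given below as a description, with no test. The 14 rows around it on chromosome II, which start between positions 117892 and 142262, were picked by position alone and serve as its surroundings.

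In the coordinates of the files (build ASM294v2), mug14 lies on the plus strand of chromosome II from 128660 to 129742, a length of 1083 bases. RefSeq annotates it as a single-exon gene with a coding sequence of 774 bases and 257 codons, and names its product an adducin involved in organization of the actin cytoskeleton. In animals, adducins cap actin filaments and join them to spectrin. The name mug stands for meiotically upregulated gene, a class named for raised transcript levels when cells enter meiosis and form spores.

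Heterochromatin in this yeast is marked by the histone methyltransferase Clr4. Epe1, a JmjC-domain protein, counteracts it and limits its spread, and the histone acetyltransferase Mst2 also opposes silencing. Cells without both proteins are known to lose control of where heterochromatin forms, and to adapt to that state over time.

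RNA was sequenced in 39 libraries, 3 for each group, from cells grown to log phase in EMMC medium at 32C, and every strain in the series lacked mst2. In the degron strain, epe1 was expressed from the thiamine-repressible nmt81 promoter as epe1-3xFLAG-AID, and the auxin receptors OsTIR1 and AtTIR1 were expressed as skp1 fusions from adh15 promoters at ade6. Thiamine with 1-naphthaleneacetic acid, called TN in the labels, shut down that promoter and triggered degradation of the tagged protein. A time course sampled the degron strain at 0, 24, 48, 72, 96 and 120 h of TN. The memory experiment, run separately, compared untreated cells, cells after 120 h of TN, cells then kept without TN for 24 h or 48 h (recovery), and cells put back into TN for 24 h once 24 h of recovery had passed (second depletion). The deletion strain, mst2D epe1D, was never given TN. It was sampled as biological replicates 1 and 2, here called isolate 1 and isolate 2, each with 3 libraries and each kept as its own group. No strain without a degron was sampled in TN, so effects of thiamine and auxin and effects of Epe1 loss cannot be told apart within the degron strain.

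The 18 time-course libraries held 20347886 to 26976973 counts each, the 15 memory libraries 14781022 to 21626064 and the 6 deletion-strain libraries 20733636 to 27900659. The least deep library was replicate 2 of the second depletion, whose counts also followed the GC content of genes most strongly, with Spearman's rho of 0.67 across genes. The row of epe1 shares 48.5% of its length with the non-coding row prl67. After subtraction of the prl67 counts, epe1 stood at 77.0 to 186 CPM in the 12 libraries of the degron strain outside TN, at 14.5 to 41.8 CPM in its 21 libraries in TN, and at 16.1 to 19.9 CPM in the 6 libraries of the deletion strain. Without subtraction, the epe1 row overlapped between the degron libraries outside TN (323 to 647 CPM) and in TN (170 to 494 CPM). Against 0 h, the whole row was not called at 24, 48, 72 or 96 h (edgeR adjusted p of 0.163 or more). It was called at 120 h (log2 difference -0.69, edgeR adjusted p = 3.59e-02). CPM here divide each count by its library's TMM-adjusted total, with 1 scale over the 6521 genes present in every table.

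In the untreated cells at the start of the time course, mug14 was close to silent, with 3.06, 3.08 and 2.43 CPM in the 3 libraries (2.86 ± 0.37, SD, n = 3). After 24 h of depletion the libraries held 185, 574 and 398 CPM (386 ± 195). After 48 h they held 1130, 840 and 909 CPM (960 ± 152). The ranges of these 3 groups did not overlap, and the mean was 135 times the starting mean at 24 h and 336 times at 48 h, or 245 and 615 times with the counts of the overlapping row SPNCRNA.1314 subtracted.

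From 72 h on, the level was lower again. At 72 h the libraries held 678, 159 and 157 CPM (331 ± 300), at 96 h 181, 163 and 188 CPM (177 ± 13.2), and at 120 h 89.1, 35.7 and 28.4 CPM (51.1 ± 33.1). Replicate 1 stood apart at 72 h and at 120 h. Without it, the mean was 158 CPM at 72 h and 32.1 CPM at 120 h. The 48 h mean was 18.8 times the 120 h mean, and every 120 h library remained above every library at 0 h.

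**Figure D1:**
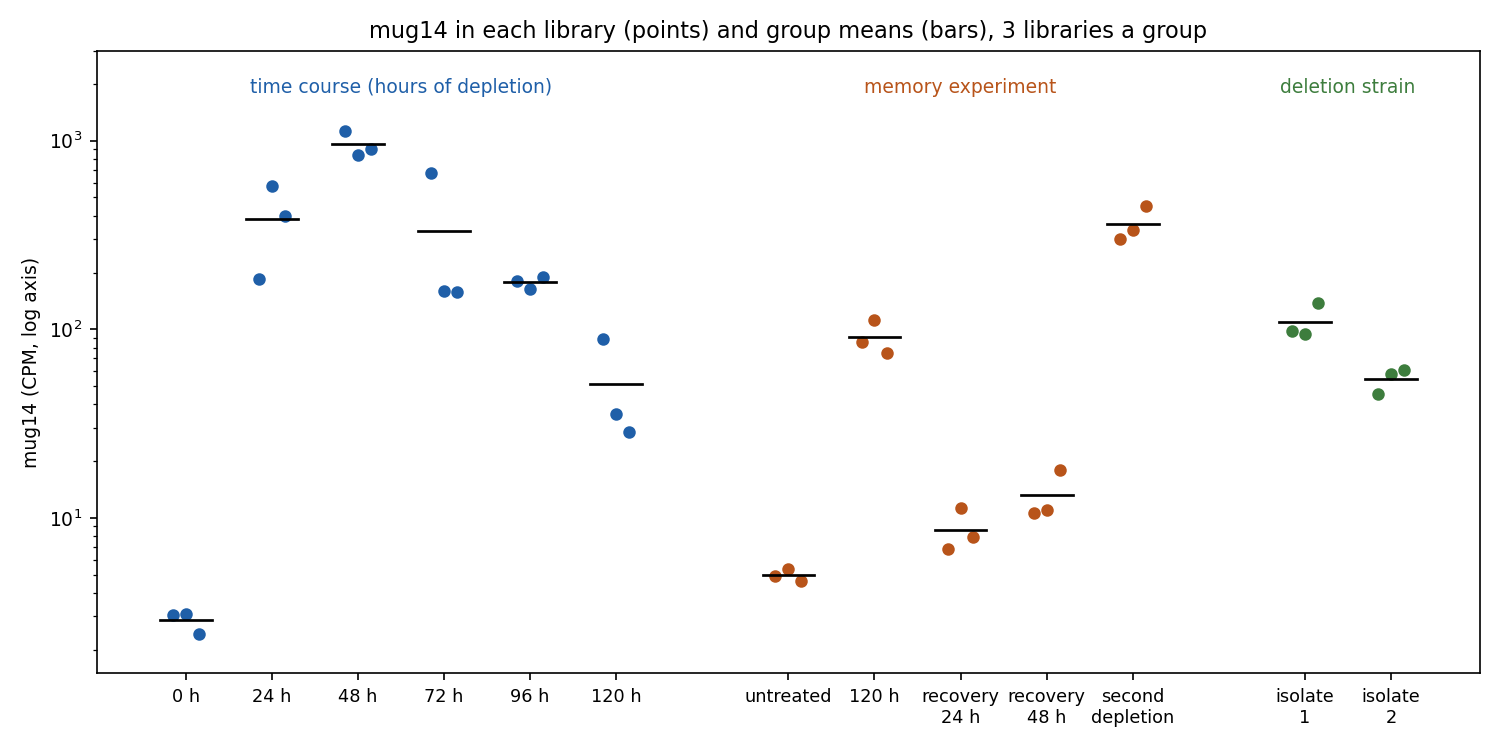
Level of mug14 in each of the 39 libraries, in CPM on a log axis, by group; points are libraries and black bars are group means. In the time course the mean was 2.86 CPM at 0 h and 960 CPM at 48 h and was lower at every later time, and in the memory experiment it was 90.8 CPM at 120 h, 8.66 CPM after 24 h of recovery and 362 CPM in the second depletion.

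Fitted against 0 h, the log2 difference was 7.10 (SE 0.72) after 24 h and 8.40 (SE 0.75) after 48 h. It was 6.85 (SE 0.71) after 72 h, 5.95 (SE 0.69) after 96 h and 4.16 (SE 0.65) after 120 h. Without replicate 1 of the time in question, they were 5.81 at 72 h and 3.49 at 120 h. Of 6664 genes in that fit, 5 had a larger rise than mug14 at 48 h and 19 had a larger rise at 120 h. Levels of different genes were compared per kilobase of row length. By mean CPM per kb, mug14 ranked 6322 of 6521 genes at 0 h, 84 at 48 h and 2779 at 120 h. RNA of whole cultures was measured, so more mug14 RNA in each cell and more cells with mug14 RNA cannot be told apart.

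The mug14 row overlaps the non-coding row SPNCRNA.1314 on the same strand over 67 bases, which is 6.19% of the gene. Libraries held 47 to 29832 counts of mug14 and 1 to 245 counts of SPNCRNA.1314, so the overlap weighs most on the lowest levels and on every ratio taken against them. With all SPNCRNA.1314 counts subtracted, the mean at 0 h was 1.55 CPM in place of 2.86, and the mean of untreated cells in the memory experiment was 4.0 CPM in place of 4.96. The ratio of the 120 h mean to the 0 h mean then became 32.3 in place of 17.9. Those of the isolates became 68.4 and 33.4, in place of 38.4 and 19.1. RefSeq lists a further non-coding transcript across the gene, SPNCRNA.4578, which is not a row of the tables used. Whether reads were counted by strand is not given in the sources used here, so sense and antisense RNA cannot be told apart at this gene.

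In the memory experiment, untreated cells held 4.92, 5.34 and 4.60 CPM of mug14 (4.96 ± 0.37, n = 3). After 120 h of depletion the libraries held 85.6, 112 and 74.9 CPM (90.8 ± 19.0). Their fitted log2 difference of 4.17 (SE 0.26) from untreated cells stands beside the 4.16 (SE 0.65) of the time course, each against its own untreated libraries. The difference between both effects was 0.03 on the log2 scale (SE 0.76), so the data leave room for a difference of either sign. A single gene of 6485 had a larger rise at 120 h in the memory experiment.

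Within 24 h of recovery mug14 was most of the way back to its untreated level. The libraries then held 6.85, 11.2 and 7.87 CPM (8.66 ± 2.30), and the 120 h mean was 10.5 times this mean (log2 difference -3.40, SE 0.24). After 48 h of recovery they held 10.6, 10.9 and 17.9 CPM (13.1 ± 4.15). All 6 recovery libraries were above all 3 untreated libraries, with means 1.75 and 2.65 times the untreated mean. Without replicate 3 of the 48 h recovery, which had a GC trend of rho 0.63, the 48 h mean was 10.8 CPM. The recovery groups overlapped each other, so a further decline between 24 h and 48 h was not seen.

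The second depletion gave 299, 338 and 448 CPM (362 ± 77.1). Every one of these libraries was above every 120 h library of the same experiment, and the mean was 3.99 times that of the first 120 h depletion and 41.8 times that of the preceding recovery. Among 6485 genes, none had a larger fitted rise than mug14, either from untreated cells (log2 difference 6.18, SE 0.27) or from the 24 h recovery (5.41, SE 0.26). The second depletion lasted 24 h, as did the first sampled time of the time course, and the mean was 0.94 times the 24 h mean there, with overlapping ranges. The memory experiment has no library at 24 h of its first depletion, so a first and a second 24 h depletion cannot be compared within it. With the GC trend removed the log2 difference from untreated cells was 6.24, and without replicate 2, the library with the strongest GC trend, it was 6.23. The GC trend was not limited to that library. Replicates 1 and 3 of the second depletion had rho of -0.01 and 0.54, and the 3 untreated libraries had -0.46 to -0.51. GC trend and treatment thus differ together in this comparison, for all genes. Scaled by plain library totals, the mean of the second depletion was 277 CPM.

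In the deletion strain, isolate 1 held 97.6, 94.1 and 137 CPM of mug14 (110 ± 24.0) and isolate 2 held 45.3, 57.6 and 60.5 CPM (54.5 ± 8.08). The isolates did not overlap, and the mean of isolate 1 was 2.01 times that of isolate 2. Against the degron strain at 0 h, the log2 differences were 5.24 (SE 0.51) and 4.23 (SE 0.51). Strain and deposited table differ together in that comparison, with neither side in TN, and cannot be told apart.

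The gene thi4, for an enzyme of thiamine synthesis, is known to be repressed by thiamine. Its level was 284 to 604 CPM in the 21 libraries in TN and 1024 to 1578 CPM in the 12 libraries of the degron strain outside TN, with no overlap. In the 6 deletion-strain libraries thi4 stood at 1111 to 1193 CPM, within the range outside TN, while mug14 there was at 45.3 to 137 CPM. The 12 degron libraries outside TN held 2.43 to 17.9 CPM of mug14. Strain and deposited table differ together here as well.

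Ordered by mean level, the 13 groups ran from the time course at 0 h through untreated cells of the memory experiment, recovery at 24 h, recovery at 48 h, the time course at 120 h, isolate 2, the memory experiment at 120 h, isolate 1, 96 h, 72 h, the second depletion and 24 h to 48 h at the top. Of the 12 neighbouring pairs in this order, 6 overlapped in range. In 5 pairs the means differed by no more than the larger SD: the time course at 120 h and isolate 2, the memory experiment at 120 h and isolate 1, 96 h and 72 h, 72 h and the second depletion, and the second depletion and 24 h. The untreated means of both degron experiments differed by 1.74 times without overlap, and by 2.58 times with SPNCRNA.1314 subtracted.

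Most rows around mug14 rose early in depletion, with smaller differences than its own. At 24 h, 11 of the 14 neighbouring rows were called by edgeR's quasi-likelihood test at a Benjamini-Hochberg adjusted p under 0.05, all of them higher, against 37.7% of all genes called (20.5% higher). At 48 h it was 12 of 14, all higher, against 48% of all genes (25.6% higher). Their median log2 differences were 1.65 and 1.78, with the median of all genes within 0.02 of 0. Later counts were 9 of 14 at 72 h against 15.8% of all genes (10.2% higher), 8 of 14 at 96 h against 12.5% (7.56% higher), and 9 of 14 at 120 h against 14.1% (6.38% higher), again all higher. Several of these rows overlap and share reads, and the 6 protein-coding rows alone gave 6, 6, 5, 4 and 5 calls at the 5 times.

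The largest rise among the protein-coding neighbours was that of pfl7 (SPBC359.04c, 117892 to 121286, minus strand), which encodes a cell-surface glycoprotein of the DIPSY family. It stood at 0.61, 0.53 and 0.78 CPM at 0 h and at 15.9, 16.4 and 17.0 CPM at 24 h. At 120 h it was at 12.9, 17.6 and 19.4 CPM. Unlike mug14, pfl7 kept its level: its log2 differences from 0 h were 4.72, 4.91, 4.57, 4.69 and 4.72 (SE 0.24 each) at the 5 times, with adjusted p of 3.53e-09 or less at each (edgeR).

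The nearest protein-coding row upstream, abc3 (SPBC359.05, 122657 to 127461, plus strand), encodes an ABC transporter and belongs to the genes repressed by the iron regulator Fep1. Its mean was 36.3 CPM at 0 h, 109 CPM at 24 h and 121 CPM at 48 h. It was 154 CPM at 72 h, fell to 77.1 CPM at 96 h and reached 225 CPM at 120 h. At 96 h the log2 difference from 0 h was 1.09 (SE 0.46) and not called (edgeR adjusted p = 0.142). At 120 h it was 2.64 (SE 0.48, edgeR adjusted p = 1.66e-03). The 24 h call of abc3 (log2 difference 1.62, edgeR adjusted p = 1.43e-02) was lost without replicate 1 or 3 of 0 h, or without replicate 3 of 24 h, at 1.44, 1.54 and 1.19. Its highest time was thus the lowest depleted time of mug14. The antisense row abc3-antisense-1 held 0.57 to 0.64 times the counts of abc3 in every library and gave no separate reading.

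Downstream, SPBC1683.01 (132353 to 136275, plus strand), which RefSeq names the inorganic phosphate transporter Pho841, was the protein-coding neighbour with a transient rise. It stood at 122 ± 13.5 CPM in the 0 h group and at 303 ± 86.2 CPM after 24 h (SD, n = 3 each). The 48 h libraries averaged 351 ± 36.6 CPM, and the 120 h libraries 75.7 ± 2.73 CPM. The rise passed the test at 24 h and 48 h (log2 difference 1.35, SE 0.23, and 1.54, SE 0.23; edgeR adjusted p = 3.95e-04 and 6.91e-05), and at 120 h the value of -0.67 (SE 0.22) did not (edgeR adjusted p = 5.81e-02).

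Farther downstream, SPBC1683.02 (an adenine or adenosine deaminase family protein), SPBC1683.03c (the transporter Amf1) and SPBC1683.04 (a glycosyl hydrolase of family 3) rose at 24 h and remained higher to 120 h. Their log2 differences at 24 h and 120 h were 0.95 and 1.07, 0.61 and 1.03, and 1.46 and 1.58, with edgeR adjusted p of 7.25e-04 or less. None of the 3 had its highest mean at 48 h.

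**Figure D2:**
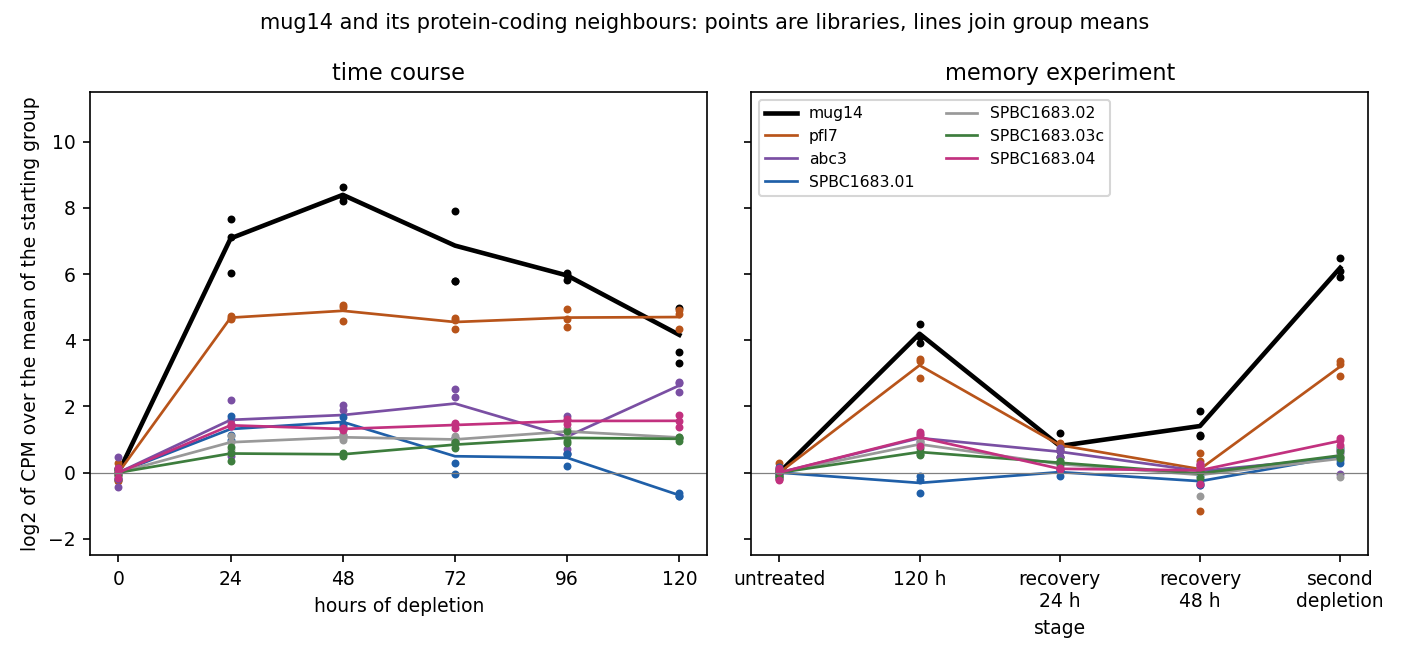
Log2 of CPM over the mean of the starting group for mug14 (black) and its 6 protein-coding neighbours (colours), in the time course by hours of depletion (left) and in the memory experiment by stage (right); points are libraries and lines join group means. In the time course the line of mug14 peaks at 48 h, that of pfl7 changes little from 24 h on, and that of SPBC1683.01 ends below its start. The edgeR fit, which differs slightly from the plotted ratios of means, gave 8.40 for mug14 at 48 h. It gave 4.57 to 4.91 for pfl7 and -0.67 for SPBC1683.01 at 120 h.

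The non-coding rows directly upstream were low throughout. SPNCRNA.1314 had means of 1.31 CPM at 0 h, 5.76 CPM at 24 h, 5.89 CPM at 48 h and 7.57 CPM at 96 h, with log2 differences of 2.14, 2.17 and 2.53 (edgeR adjusted p = 2.22e-02, 1.49e-02 and 2.15e-02). At 72 h (1.23) and 120 h (-0.41) it did not pass. All 3 calls were lost without replicate 2 or 3 of 0 h, at 1.94 to 2.34. The 24 h call was also lost without replicate 2 of 24 h, at 1.15, and in a fit to the compared groups alone, at 2.12, and the 96 h call without replicate 2 of 96 h, at 2.40. Downstream, the non-coding row SPNCRNA.296 (140474 to 141087) was called at 48 h alone (3.14, SE 0.74, edgeR adjusted p = 2.75e-03) and stood at 1.09 at 72 h and 0.03 at 120 h. SPNCRNA.1313, which lies on the opposite strand 89 bases before mug14, and SPNCRNA.294 did not pass the test at any time of the course.

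In the 24 h and 72 h groups, the libraries with the most mug14 also had the most SPNCRNA.1313. At 24 h, SPNCRNA.1313 stood at 2.05, 11.7 and 3.83 CPM, in the same order of libraries as mug14 at 185, 574 and 398 CPM. At 72 h it stood at 6.98, 1.69 and 1.31 CPM, with mug14 at 678, 159 and 157 CPM. SPNCRNA.1313 is not a separate reading, because it overlaps SPNCRNA.1314, the row that runs into mug14. At 24 h SPNCRNA.1313 held 55, 248 and 95 counts and SPNCRNA.1314 held 51, 245 and 95. At 72 h they held 144, 40 and 30 counts and 129, 37 and 35. With the strand setting not given, RNA of these rows cannot be told apart. The haem-uptake gene shu1, a member of the Fep1 list, ran the other way in both groups, with 910, 76.7 and 629 CPM at 24 h and 117, 1098 and 726 CPM at 72 h. What these libraries share was not tested.

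In the memory experiment, 6 of 12 neighbouring rows were called higher at 120 h, against 6.15% of all genes called (2.62% higher), and 4 of the 6 protein-coding rows were among them. Of these, pfl7 stood at 2.26, 2.23 and 3.09 CPM untreated and at 26.1, 18.2 and 27.4 CPM after 120 h (log2 difference 3.22, SE 0.32, edgeR adjusted p = 1.93e-05). abc3 rose by 1.03 (SE 0.18), SPBC1683.03c by 0.60 (SE 0.08) and SPBC1683.04 by 1.05 (SE 0.15), with edgeR adjusted p of 2.66e-03 or less. For SPBC1683.01 the difference was -0.33 (SE 0.15, edgeR adjusted p = 0.322).

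After 24 h of recovery, edgeR called 0 of 12 neighbouring rows against untreated cells, where 3.04% of all genes were called. At an unadjusted p under 0.05 it was 5 rows, and DESeq2 called 2. After 48 h, edgeR and DESeq2 each called 0 of 12, with 0 at an unadjusted p under 0.05, against 2.42% of all genes. Against the 120 h libraries, 4 of 12 rows were lower after 24 h of recovery, where 4.73% of all genes were called (2.45% lower). Among them, pfl7 fell by 2.41 on the log2 scale (SE 0.31, edgeR adjusted p = 2.30e-04) and SPBC1683.04 fell by 0.95 (SE 0.15, edgeR adjusted p = 1.86e-03). The call of SPBC1683.03c (-0.32, SE 0.08, edgeR adjusted p = 4.54e-02) was lost without any single replicate of either group, which left 3 rows. It was also lost with DESeq2 size factors, with plain library totals and with the replicate block.

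In the second depletion, 5 of 12 rows (41.7%) were called against untreated cells, all of them higher. The share called was close to the 44.7% of all genes called in that comparison, and the share called higher was above their 22.7%. GC trends of the libraries also differ between these groups, as given above. pfl7 returned to 24.7, 19.1 and 26.1 CPM (log2 difference 3.21, SE 0.32, edgeR adjusted p = 1.52e-05), near its first 120 h level of 23.9 ± 4.95 CPM, whereas every mug14 value was above its own first 120 h range. abc3 reached 105 ± 26.7 CPM, and its log2 difference of 0.45 (SE 0.18) missed the threshold (edgeR adjusted p = 5.70e-02). From the preceding recovery, 4 of 12 rows were called, all higher, against 27.8% of all genes (16.3% higher). The calls of SPBC1683.01 in the second depletion (0.49 in both comparisons) were lost with the GC trend removed, at 0.19 and 0.27, as they were when its replicate 2 was left out, at 0.34 in both. The first was also lost without replicate 1 or 2 of untreated cells, at 0.41 and 0.47, and the second without any single replicate of recovery at 24 h, at 0.43 to 0.53.

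**Figure D3:**
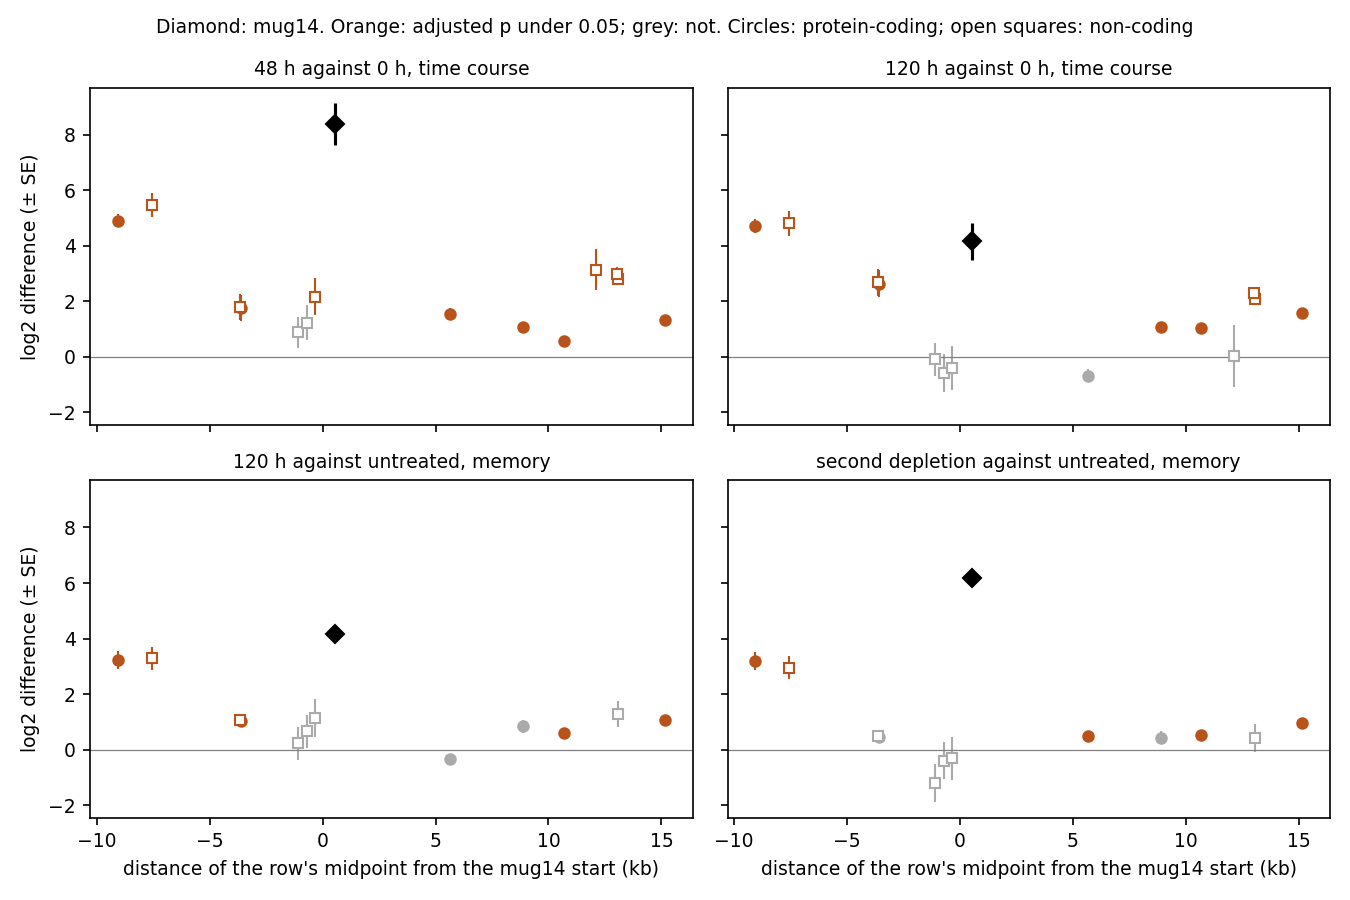
Log2 difference (± SE, edgeR fit) of each row around mug14 by the distance of its midpoint from the mug14 start in kb, in 4 comparisons; the diamond is mug14, circles are protein-coding rows, open squares non-coding rows, and orange marks an adjusted p under 0.05. In each panel but that of 120 h in the time course, mug14 lies above every other row, and there pfl7 (4.72) and its overlapping row SPNCRNA.293 (4.82) lie above the 4.16 of mug14.

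In the deletion strain, 10 of 13 rows were called higher in isolate 1 than in the degron strain at 0 h, against 32.8% of all genes called (17.2% higher), and 6 of 13 in isolate 2, against 31.3% (16.5% higher). In isolate 2, but not in isolate 1, the difference of SPBC1683.01 was larger than that of pfl7, unlike at any time of the depletion course. SPBC1683.01 was at 283 ± 40.9 and 354 ± 41.3 CPM in the isolates, with log2 differences of 1.21 and 1.54 (SE 0.12 each), and pfl7 was at 2.36 ± 0.14 and 1.44 ± 0.62 CPM, with 1.89 (SE 0.32) and 1.21 (SE 0.35). The pfl7 call in isolate 2 (edgeR adjusted p = 1.86e-02) was lost without its replicate 2, at 0.77, and without replicate 1 or 2 of 0 h, at 1.18 and 1.09. The untreated cells of the memory experiment averaged 434 CPM of SPBC1683.01 and 2.53 CPM of pfl7, above both isolate means. For these rows the isolates were thus higher than 0 h of the time course but not than untreated memory cells. abc3 averaged 77.3 CPM in those cells, below its 96.1 and 84.6 CPM in the isolates. No test against those cells was run.

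The 120 h effect was tested for a difference between the memory experiment and the time course in 1 fit. Of 13 neighbouring rows, pfl7 was the 1 row called, with a smaller effect in the memory experiment (-1.48, SE 0.41, edgeR adjusted p = 3.66e-02), against 3.81% of all genes called (1.88% lower). This call was lost, at -1.30 to -1.61, without any single replicate of either untreated group, without replicate 2 or 3 of 120 h in the time course, or without replicate 2 of 120 h in the memory experiment.

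The gene whose levels were most like those of mug14 was isp3 (SPAC1F8.05, chromosome I, 95961 to 96966), which encodes a protein of the spore wall. Pearson's r of log2 CPM was 0.98 over the 18 libraries of the time course and 0.98 over the 15 of the memory experiment, which put it first of 6083 genes ranked by the smaller r of both experiments. isp3 stood at 3.80, 2.99 and 3.98 CPM at 0 h, at 186, 127 and 144 CPM at 48 h and at 23.1, 10.9 and 8.57 CPM at 120 h. In the 3 libraries at 72 h it stood at 108, 25.7 and 22.9 CPM, with replicate 1 apart as for mug14. It also separated the isolates, with 35.1 ± 1.63 CPM in isolate 1 and 7.76 ± 1.29 CPM in isolate 2.

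The next genes were the antisense row isp3-antisense-1, which overlaps isp3, then ght3, a plasma membrane gluconate transporter, mmf2, annotated in isoleucine synthesis, and SPAC1039.06, annotated with D-serine ammonia-lyase activity. Their r in the time course was 0.98, 0.94, 0.91 and 0.94, and in the memory experiment 0.97, 0.95, 0.92 and 0.91. The untreated and TN libraries form separate clusters, and this split contributes to every one of these values. Within the 15 TN libraries of the time course, r with mug14 was 0.99 for isp3, 0.76 for ght3, 0.71 for mmf2 and 0.78 for SPAC1039.06. Within the 6 TN libraries of the memory experiment it was 0.91, 0.81, 0.78 and 0.89 for the same genes, and within its 9 libraries without TN it was 0.52, 0.75, 0.51 and 0.89. In those 9 libraries the group means of mug14 ran from 4.96 to 13.1 CPM and those of isp3 from 4.80 to 5.66 CPM. Among the neighbours, r in the time course and the memory experiment was 0.85 and 0.87 for pfl7 and 0.40 in both for abc3.

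The most opposite genes were SPCC645.13 (a transcription elongation regulator, Bye1), thi4, SPBC543.02c (a TPR-domain protein of the DNAJC7 family), pac1 (a double-strand-specific ribonuclease) and SPBC530.07c (a TENA/THI family protein). Their r ran from -0.98 to -0.88 in the time course and from -0.96 to -0.90 in the memory experiment. Within the 15 TN libraries of the time course it was -0.94 for SPCC645.13 and -0.45 to -0.77 for the other 4. The memory experiment did not keep these signs throughout. Within its 6 TN libraries r was -0.44 for SPCC645.13, -0.03 for thi4, -0.65 for SPBC543.02c, -0.83 for pac1 and 0.73 for SPBC530.07c. Within its 9 libraries without TN the values were -0.05, 0.89, -0.52, -0.62 and 0.32 in the same order. SPCC645.13 went from 165 ± 4.83 CPM at 0 h to 102 ± 1.74 CPM at 48 h and 134 ± 6.42 CPM at 120 h.

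**Figure D4:**
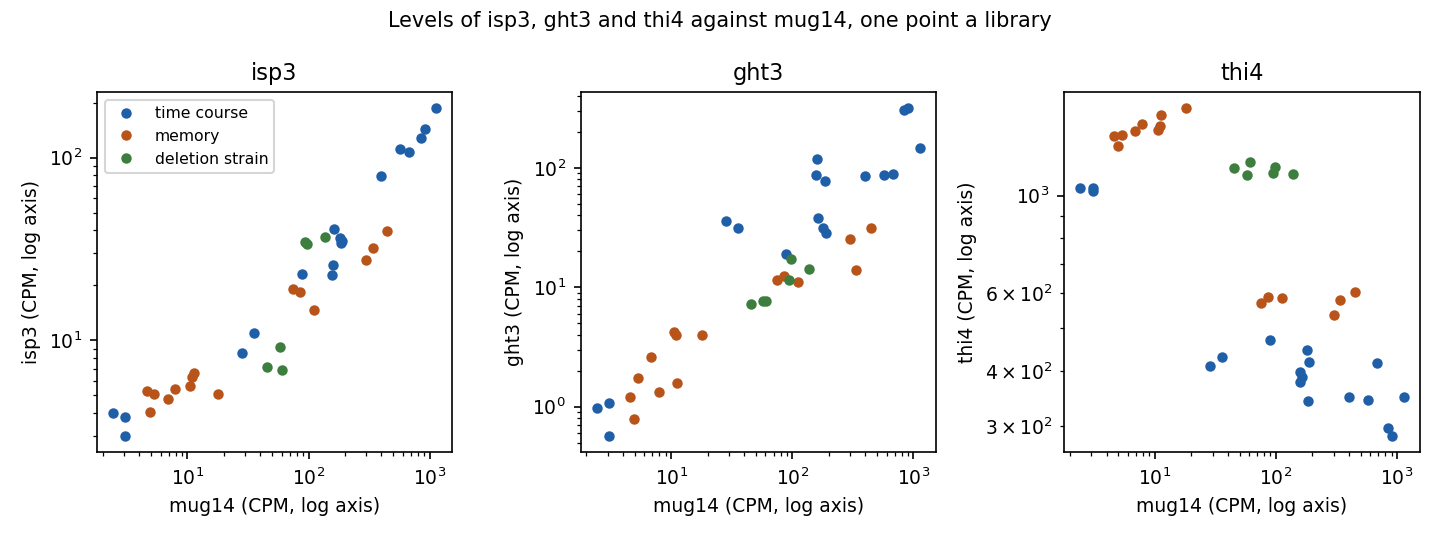
Level of isp3, ght3 and thi4 against the level of mug14 in each of the 39 libraries, in CPM on log axes, coloured by experiment. In the time course isp3 has an r of 0.98 with mug14 and ght3 of 0.94, the memory groups outside TN have isp3 means of 4.80 to 5.66 CPM, and the deletion strain joins high mug14 with thi4 at 1111 to 1193 CPM.

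The other mug genes, 105 in the time course fit and 104 in the others, were called in both directions. At 48 h, 42 rose, which is 40% beside the 25.6% of all genes, and 14 fell, which is 13.3% beside 22.4%, with a median log2 difference of 0.11. After 120 h of the time course 8 rose and 7 fell, 7.62% beside 6.38% and 6.67% beside 7.76%. The count of 15 was 8 without replicate 1 of 0 h, and 9 without replicate 3 of 0 h or replicate 3 of 120 h. In the memory experiment 1 rose and 4 fell at 120 h, where 2.62% of all genes were higher and 3.53% lower. The count of 5 was 3 without replicate 1 or 3 of untreated cells and 2 without replicate 2 or 3 of 120 h. In the second depletion 17 rose and 25 fell, 16.3% beside 22.7% and 24.0% beside 22%, and the count of 42 was 23 without replicate 1 and 25 without replicate 2 of untreated cells, 15 with plain library totals and 12 in a fit to the compared groups alone. By size at 120 h of the memory experiment the largest falls were those of mug111 (-3.25, SE 0.28), mug114 (-1.06, SE 0.27) and mug108 (-0.98, SE 0.20), with edgeR adjusted p of 5.39e-06, 2.99e-02 and 8.91e-03. At 120 h of the time course mug111 was also lower (-2.54), but mug114 (0.68) and mug108 (0.23) were not lower and not called. The 120 h effects of mug114 and mug108 differed between the experiments (edgeR adjusted p = 1.16e-02 and 1.65e-02).

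A further gene annotated as an adducin in RefSeq, SPBC1289.14 (chromosome II, 4412072 to 4413599), shared a part of the time course at a far lower level. It stood at 0.83, 0.29 and 0.31 CPM at 0 h and at 7.35, 5.82 and 6.13 CPM at 48 h (log2 difference 3.75, SE 0.57, edgeR adjusted p = 1.01e-04). At 72 h it stood at 3.35, 1.31 and 1.45 CPM, replicate 1 again the highest (log2 difference 2.07, SE 0.61, edgeR adjusted p = 3.33e-02), and at 120 h it was at 0.19, 0.13 and 0.09 CPM. It did not pass the test at 24 h, 96 h or 120 h, nor in the memory experiment or the deletion strain.

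The Fep1 list, 10 genes linked to the iron regulator Fep1 that include abc3, was called at every time of the course in part. After 24 h 7 of 10 were called, beside 37.7% of all genes, and after 72 h 7, all higher, beside 15.8% (10.2% higher). At 48 h 8 rose and 1 fell, beside 48% called (25.6% higher, 22.4% lower). At 96 h 2 rose, beside 12.5% (7.56% higher), and at 120 h 9 rose, beside 14.1% (6.38% higher). The median log2 differences at the 5 times were 1.86, 1.82, 2.13, 0.73 and 2.95, with the median of all genes within 0.02 of 0.

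These counts rest on single libraries. The 48 h count was 5 without replicate 3 of 0 h or replicate 2 or 3 of 48 h, and the 120 h count was 5 without replicate 1 or 3 of 0 h. At 24 h it was 4 without replicate 1 of that time. At 72 h it was 3 without replicate 1 or 3 of 0 h and 4 without replicate 2 or 3 of 72 h, with 3 in a fit to the compared groups alone, and at 96 h it was 1 without replicate 1 of 0 h. The member shu1 had an r with mug14 of 0.79 in the time course and 0.86 in the memory experiment.

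In the memory experiment 3 of 9 Fep1 genes rose at 120 h, beside 6.15% of all genes called (2.62% higher). In the second depletion 1 rose and 1 fell, below the 44.7% of all genes called, and the count was 4 without its replicate 2 and 5 with the GC trend removed. In recovery edgeR called 0 of 9 at 24 h and at 48 h, beside 3.04% and 2.42% of all genes, with 3 and 1 at an unadjusted p under 0.05 and 2 and 1 called by DESeq2.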

How the data were processed

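Raw gene-level counts were deposited, per the file headers on build ASM294v2, as tables of 6711 (time course), 6544 (memory) and 6684 genes (deletion strain) with a column for each library. The submitters' processing notes name Trimmomatic and STAR. The counting tool and strand setting are not given in the sources used here. Another 6 sample columns matched no label and were not used. The column index was read as the replicate number, and second-depletion libraries were placed by title, since their treatment label read '-'. The labels do not say whether libraries of a group are separate cultures, so p-values measure the spread between these libraries, which may be technical. Of 39 library pairs within groups, none were duplicates.

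Counts were fitted with edgeR 4.0.16 in R 4.3.3 (TMM, filterByExpr, robust quasi-likelihood, 2-sided, Benjamini-Hochberg over all genes of a fit) in 4 fits: 18 time-course libraries, 15 memory libraries, 6 deletion-strain libraries joined to those at 0 h and 120 h of TN, and 33 degron libraries for the difference of effects. Comparisons within an experiment share their untreated libraries. On simulated data the fits recovered 193, 177, 194 and 159 of 200 altered genes for 120 h in the time course (6653 genes), 120 h in the memory experiment (6471), isolate 1 (6567) and the difference of effects (6527). In the same order, 8, 14, 10 and 4 further calls were false.

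Levels are CPM over the 6521 genes in all tables; since tables were deposited separately, levels across tables also carry any difference between them. Named genes were mug14, its neighbours and overlapping rows, epe1 and clr4 as strain checks, adducin genes, the Fep1 list, the 3 largest called rises and falls among mug genes at 120 h of the memory experiment with a mean of at least 5 CPM (no rise met this), and the 5 genes most and least like mug14 by Pearson's r of log2 CPM (prior count 2), ranked by the weaker of both experiments. SPNCRNA.1313, shu1 and the r within TN libraries were brought in after their values were seen. Genes and lists were chosen with earlier results of these data known. Names and products come from RefSeq (ASM294v3), matched by identifier for 6626 of 6745 genes. Alternatives included DESeq2 1.42.0, other scalings, removal of the GC trend, a replicate block and leaving out each library. Same-numbered libraries deviated together, with r over 0.1 in all 3 pairs, for 72 h against 0 h alone (r 0.16 to 0.17). Over all pairs between groups of the time course, the median r was 0.17 for same-numbered libraries and -0.06 for the others.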

Additional observations from a re-analysis of the deposited data

Results flagged for a closer look

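The effect of 120 h of depletion on pfl7, the glycoprotein gene upstream of mug14, was called different between the experiments, but the call was fragile. The effect was 4.72 on the log2 scale in the time course and 3.22 in the memory experiment. The test of the difference gave -1.48 (edgeR adjusted p = 3.66e-02, 33 libraries). This call was lost with plain library totals (-1.47). It was also lost without any single replicate of either untreated group, and without some single replicates at 120 h. The gene stood at 0.64 ± 0.12 CPM in untreated cells of the time course and at 2.53 ± 0.49 CPM in untreated cells of the memory experiment, and at 16.6 ± 3.37 and 23.9 ± 4.95 CPM after 120 h (SD, n = 3 each).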

How the results depend on the processing

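No call on a neighbouring row changed direction under any alternative run. Over 85 pairs of called row and comparison, 1130 of 1195 alternative values passed the threshold in the same direction, and 65, in 18 pairs, no longer passed it. For the neighbours at 24 h of recovery, where the count was 0, DESeq2 gave 2, removal of the GC trend 1, and a fit to the compared groups alone 4. The fit to the compared groups alone gave 8 in place of 4 for 24 h of recovery against 120 h. Plain library totals gave 2 in place of 5 for the second depletion against untreated cells, 2 in place of 4 against recovery, and 0 in place of 1 for the difference of the 120 h effect. For that difference DESeq2 gave 3, and leaving out single libraries gave 0 to 1. With the replicate number as a block, isolate 2 had 9 called neighbours in place of 6, and with the block and the GC trend removed together recovery at 24 h had 1. For 72 h against 0 h, where all 3 same-numbered pairs had r over 0.1, the block left 9 calls and gave 6.69 for mug14. It changed no other neighbour count by over 1.5 times. For 48 h of recovery against untreated cells, the block gave 0 in place of 1 for the mug genes. It gave 1 in place of 0 there for the Fep1 list, and 1 in place of 2 for 24 h of recovery against 120 h. Leaving out 1 library moved the log2 difference of mug14 to between 5.81 and 7.18 at 72 h and between 3.49 and 4.44 at 120 h of the time course. Plain totals gave 5.91 for the second depletion against untreated cells, and levels of 191 CPM at 96 h and 277 CPM in the second depletion. TMM within each table gave 4.25 CPM in untreated memory cells. Subtraction of SPNCRNA.1314, chosen after seeing the data as was the protein-coding count, gave 1.55 CPM at 0 h and 4.0 CPM in untreated memory cells. The cause of these shifts was not tested. Of the 5 most like genes, plain totals kept 4, and linear CPM and Spearman's rho kept 2 each; of the 5 most opposite, they kept 3, 0 and 1.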

Other observations

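The mean level of the histone methyltransferase gene clr4 was 52.5 CPM at 0 h, 49.3 CPM at 48 h, 24.1 CPM at 72 h and 14.3 CPM at 120 h. In the memory experiment it was 38.5 CPM untreated, 8.03 CPM at 120 h, 133 CPM after 24 h of recovery and 18.7 CPM in the second depletion. In the second depletion mug14 was thus at 362 CPM with clr4 at 18.7 CPM, and in the time course at 24 h it was at 386 CPM with clr4 at 57.3 CPM.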
